A study of Mus musculus with 8 samples.

Results

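The thyroid hormone and retinoid nuclear receptors were followed through the development of the mouse retina, from the embryonic tissue to sorted cells of the first postnatal days. The members are the 9 genes Thra, Thrb, Rxra, Rxrb, Rxrg, Rara, Rarb, Rarg and Rora, taken by gene symbol from 21827 genes in all. RNA was sequenced from whole retinas at E15 and E18 and from Cd73PC and Cd73NC cells, the fractions positive and negative for the surface protein Cd73, sorted by flow cytometry at P2, P5 and P8. All mice were wild type and of the slc:ICR strain. Cd73 is a marker of rod photoreceptors and their precursors, so the Cd73PC fraction is enriched in rods and the Cd73NC fraction holds the other retinal cells. Retinas of several animals were pooled for each sort, and each of the 8 conditions had 1 library, so no difference at a single stage could be set against a replicate error. The fractions of a stage came from the same retinas, and a test was made only of their difference over the 3 stages.

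Nuclear receptors are transcription factors whose activity is set by small lipophilic ligands that enter the nucleus. Thyroid hormone receptors and retinoic acid receptors (RAR) bind DNA mostly as dimers with a retinoid X receptor (RXR), and without hormone they recruit corepressors. The receptor Ror alpha, encoded by Rora, binds as a monomer. In the retina, thyroid hormone receptor beta and RXR gamma are best known for cones, where they act on the choice between the S and M opsins, and retinoic acid is known for its part in eye patterning and photoreceptor differentiation.

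Values are FPKM, a level of expression per transcript length and per mapped fragment of the library, so that levels of different genes can be compared. The depth of the libraries relative to E18 ranged from 0.966 to 1.61, and between 11152 and 12413 genes had an FPKM of at least 1. The bounds that Cufflinks gives for each FPKM describe the estimate within 1 library and not the variation between animals. The labels of the fractions were checked against 6 rod markers, and all 6 were higher in Cd73PC at each of the 3 stages. Their summed FPKM in Cd73NC was 1.59% (P2), 11.5% (P5) and 6.57% (P8) of that in Cd73PC, so the P5 Cd73NC library was the nearest to its Cd73PC partner. Since whole fractions were measured, fewer cells of a type and less RNA per cell cannot be told apart.

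The promoters of the receptors were taken from RefSeq (build GRCm38.p6), which matched 8 of the 9 members with 16 start sites. The hormone and retinoid receptors recognise variants of the hexamer AGGTCA, alone or as direct repeats whose spacing helps to select the dimer. The 250 bases before each start were searched on both strands for AGGTCA and for 2 copies, in any pairing, of AGGTCA or its variants (GGGTCA and also AGTTCA and also GGTTCA) spaced by 1 base (DR1), 4 bases (DR4) or 5 bases (DR5). The same windows were searched for TAATCC, the core bound by the photoreceptor factors Crx and Otx2, and for the ROR response element. In 32851 promoters of the same length, AGGTCA was present in 14.0%, DR1 in 0.164%, DR4 in 0.067%, DR5 in 0.0883%, TAATCC in 6.25% and the ROR response element in 0.332%.

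The promoter of Rarb, which encodes the RAR whose own transcription is a classical response to retinoic acid, held a DR5, present in 29 of the 32851 promoters, from position -53 to -37 counted from the start. The promoters of Thrb and Rxrg each held AGGTCA at 1 of their start sites, at position -184 of Thrb and -88 of Rxrg. In Thrb, TAATCC lay on the opposite strand, from position -46 to -41 of the same start. The other start of Thrb held none of the searched motifs. AGGTCA was also found on both strands before a start of Rxra and on the opposite strand before a start of Rarg. The starts of Rxrb, Rara and Rora held none of the searched motifs. Of the receptors higher in Cd73PC at each stage, Thrb, Rxra and Rxrg thus had AGGTCA and Rora did not. Of the receptors that were not, Rarg had AGGTCA, and Rxrb, Rara and Rarb did not. A link between AGGTCA and the direction of the fractions was not tested. These matches are letters in a window and not measured binding sites. The last 200 bases before the start are shown for the 3 promoters in the sense of the gene, from chr14:16575477-16575676 (minus strand) for Rarb, chr14:17660760-17660959 (plus strand) for Thrb and chr1:167618065-167618264 (plus strand) for Rxrg, with the DR5, AGGTCA and the reverse complement of TAATCC in capitals.
Rarb: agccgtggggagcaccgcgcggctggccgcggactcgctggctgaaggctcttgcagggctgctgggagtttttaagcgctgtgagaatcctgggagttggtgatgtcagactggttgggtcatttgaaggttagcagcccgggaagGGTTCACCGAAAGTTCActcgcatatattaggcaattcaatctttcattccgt
Thrb: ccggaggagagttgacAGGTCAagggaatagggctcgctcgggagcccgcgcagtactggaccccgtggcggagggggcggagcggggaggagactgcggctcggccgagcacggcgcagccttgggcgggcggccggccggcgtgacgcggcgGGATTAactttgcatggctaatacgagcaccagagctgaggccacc
Rxrg: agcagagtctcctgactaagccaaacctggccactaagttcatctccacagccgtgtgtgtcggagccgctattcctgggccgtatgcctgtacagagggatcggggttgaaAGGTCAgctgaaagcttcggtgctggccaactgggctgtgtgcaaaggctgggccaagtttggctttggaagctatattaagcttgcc

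The receptors differed widely in level. Thra had the highest FPKM of the 9 genes in each of the 8 libraries and Rxrb the next highest, while Rarg had the lowest in each. Across libraries the median FPKM was 75.2 for Thra, 31.1 for Rxrb, 20.2 for Rara, 14.8 for Rxra, 13.2 for Thrb, 10.8 for Rxrg, 8.43 for Rora, 4.23 for Rarb and 0.645 for Rarg. Between the lowest and the highest library, FPKM + 1 varied 9.14-fold for Rxrg, 4.85-fold for Rora, 4.44-fold for Rxra, 3.32-fold for Thrb, 3.30-fold for Thra and 2.87-fold for Rarb, against a median of 2.32-fold over 13411 genes with an FPKM of at least 1 in any library. The steadiest members were Rara with 1.46-fold, Rxrb with 1.39-fold and Rarg with 1.39-fold, where the added 1 hides part of a 2.03-fold range in FPKM. The lowest level of 5 of the 9 genes (Thrb, Rxra, Rxrb, Rxrg and Rara) was in P8 Cd73NC, the library in which Thra and Rarg were highest.

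**Figure D1:**
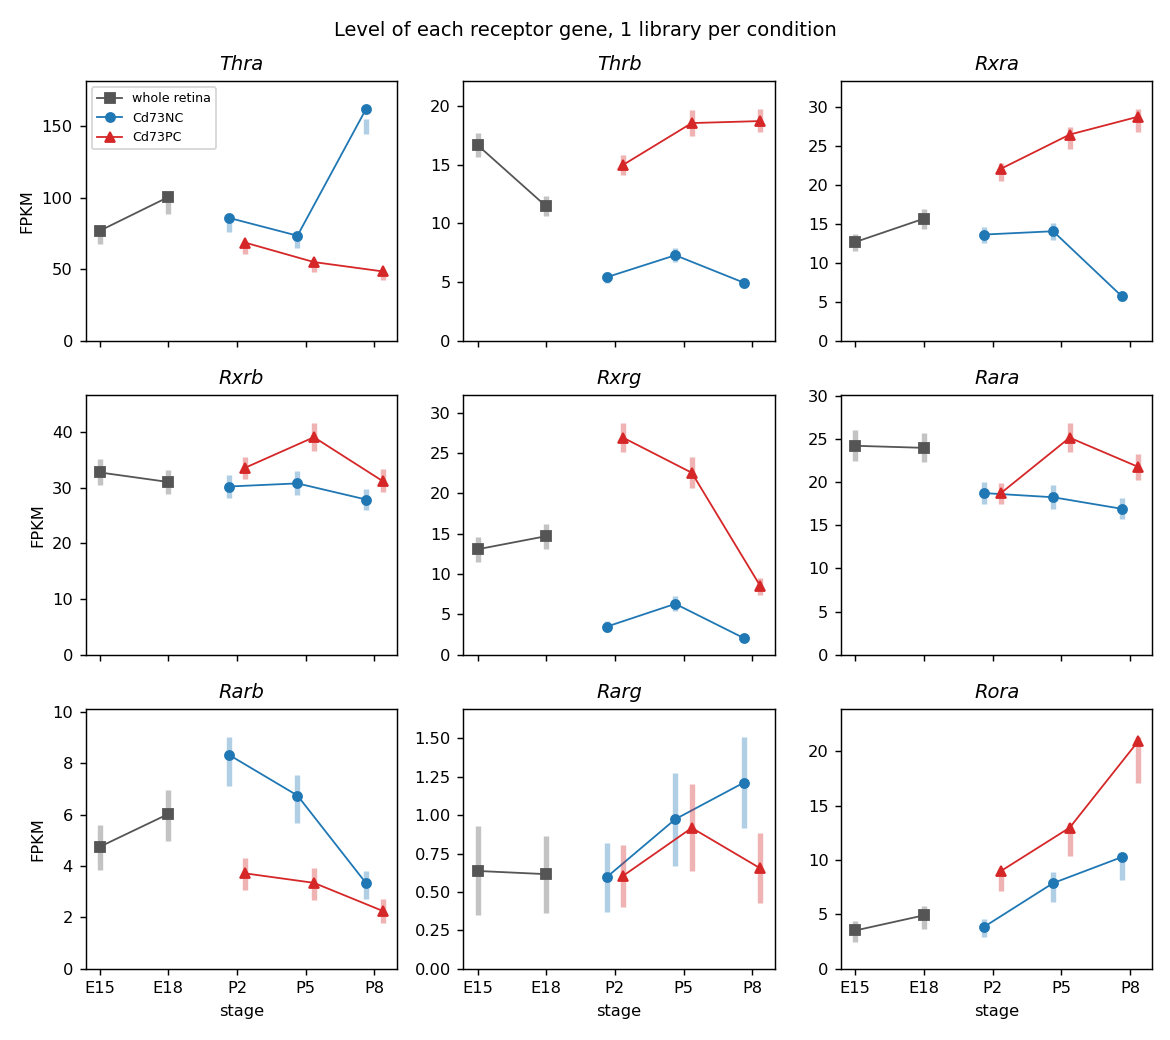
FPKM of the 9 receptor genes (y axis, 1 panel per gene, each from 0) against stage (x axis) in whole retina (squares), Cd73NC (circles) and Cd73PC (triangles), with 1 library per point and the Cufflinks bounds as pale bars. The red and blue courses lie apart at every stage for Thrb, Rxra, Rxrg and Rora, and Thra reached 162 in P8 Cd73NC against 48.5 in P8 Cd73PC.

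The comparison of the fractions at each stage asks which genes are expressed more in rods than in the other retinal cells. Thrb, Rxra, Rxrg and Rora were higher in Cd73PC at P2, P5 and P8, and Rarb was lower at P2 and P5. Thra was lower in Cd73PC at P8. A gene was counted as higher or lower where FPKM + 1 differed by more than 1.5-fold. By this rule 4 of the 9 receptors were higher in Cd73PC at P2, against 13.7% of the 13411 genes. At P5 they were 4 of 9 against 11.3%, and at P8 they were 4 of 9 against 12.1%. One receptor was lower at each stage (1 of 9), against 23.3% (P2), 25.1% (P5) and 29.6% (P8) of all genes. The 4 higher genes were the same at the 3 stages, and 5.7% of all genes were higher at every stage. With a 2-fold threshold, 2 receptors, Thrb and Rxrg, were higher at all 3 stages and Rarb was not called lower. The shares of all genes given here are for 1.5-fold and cannot be set beside the 2-fold counts. After quantile normalization the shares of all genes higher and lower were 16.2% and 17.6% at P5 and 19.0% and 20.4% at P8, and Rarb at P5 was within the limit. None of the 9 was lower at every stage (0 of 9), against 12.7% of all genes. The median log2 ratio of the 9 genes was 0.15 (P2), 0.44 (P5) and 0.35 (P8), and that of all 13411 genes was -0.13, -0.17 and -0.22. All 9 members passed the filter on low values, Rarg through the P8 Cd73NC library alone.

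The stages were then used as 3 pairs of libraries, in a limma fit of log2(FPKM + 1) over the 13411 genes with stage as the block, added after the values were seen. Each pair is another age, so the error holds the change of the difference with age and not the spread between animals. The mean log2 difference of Cd73PC from Cd73NC was 1.43 ± 0.166 (SE) for Thrb, 1.99 ± 0.247 for Rxrg, 1.23 ± 0.325 for Rxra and 0.88 ± 0.154 for Rora. The limma adjusted p was 0.00774 for Thrb, 0.00848 for Rxrg, 0.0176 for Rora and 0.0495 for Rxra, the last just under the threshold of 0.05. Rarb was lower by this test, with -0.74 ± 0.173 and a limma adjusted p of 0.0358. Thra missed the threshold, with -0.82 ± 0.317 and a limma adjusted p of 0.118, and Rxrb, Rara and Rarg had adjusted p values between 0.27 and 0.512. Thus 4 of the 9 were higher, against 8.07% of all genes, and 1 of 9 was lower, against 18.3%. The calls rest on all 3 pairs. Without P2 or without P8, Thrb and Rxrg stayed higher (2 of 9), while Rxra and Rora had limma adjusted p values from 0.0502 to 0.0565. Rarb was lower without P8 but not without P2 (limma adjusted p 0.0968). Of all 13411 genes, 2933 passed in either direction without P2 and 2497 without P8. Without P5, 0 of all 13411 genes passed in limma.

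**Figure D2:**
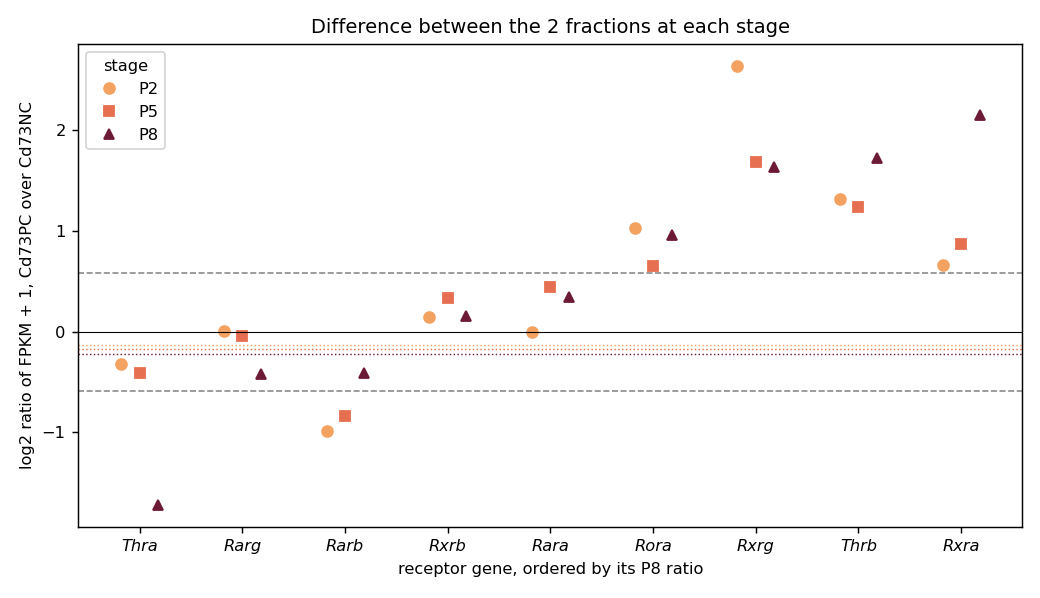
Log2 ratio of FPKM + 1 in Cd73PC over Cd73NC (y axis) for the 9 receptor genes (x axis, ordered by the P8 ratio) at P2 (circles), P5 (squares) and P8 (triangles). Dashed lines mark 1.5-fold, dotted lines the median of all genes at each stage, and the points of Rora, Rxrg, Thrb and Rxra lie above the upper dashed line at all 3 stages.

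Thra encodes thyroid hormone receptor alpha, the broadly expressed receptor of the pair, and its row spans chromosome 11 from 98603187 to 98626425 (NCBI37/mm9, plus strand). Its FPKM was 76.9 at E15 and 100.5 at E18 in whole retina. In Cd73NC it was 86.0 (P2), 73.5 (P5) and 162 (P8), and in Cd73PC it was 68.6, 55.0 and 48.5. The P8 Cd73NC library stood above all others, and in the sorted cells Cd73NC was above Cd73PC at each stage. The Cd73NC level was 1.25-fold (P2), 1.33-fold (P5) and 3.30-fold (P8) that of Cd73PC on FPKM + 1. From P2 to P8 it was 1.88-fold higher in Cd73NC and 1.41-fold lower in Cd73PC, the latter within the 1.5-fold limit. The deposited FPKM of Thra lay above its own upper bound in all 8 libraries, as no value of the other members did (8 of 72 values), so these bounds could not be used as an error for this gene.

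The library with the highest Thra, P8 Cd73NC, also had the highest level of markers of bipolar cells, the interneurons that receive the signal of photoreceptors. The summed FPKM of the 4 bipolar markers Vsx1, Cabp5, Grm6 and Trpm1 was 571 in P8 Cd73NC and between 1.496 and 62.7 in the other 7 libraries, and all 4 were lower in P8 Cd73PC. P8 Cd73PC had the next highest sum, 62.7, and a Thra FPKM of 48.5. The 4 Muller glia markers, summed, were at 1022 in P8 Cd73NC and 1177 in P5 Cd73NC, with Thra at 162 and 73.5. The part of these cells in the level of Thra was not tested. A longer annotated transcript of Thra (11:98603125-98630320) overlaps the neighbouring Nr1d1, a clock receptor on the opposite strand whose row begins 2823 bases beyond the Thra row, and the library protocol did not keep the strand. The FPKM of Nr1d1 was 14.6 at E15 and 19.7 at E18, then 25.5, 40.6 and 44.5 in Cd73NC and 20.3, 23.3 and 25.9 in Cd73PC at P2, P5 and P8. The part of reads from Nr1d1 in the level of Thra was not tested.

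Thrb encodes thyroid hormone receptor beta, whose isoform Thrb2 is required for M opsin in cones (chromosome 14 from 18493474 to 18870602, plus strand). In whole retina its FPKM was 16.7 at E15 and 11.4 at E18. In Cd73PC it was 15.0 (P2), 18.5 (P5) and 18.7 (P8), and in Cd73NC it was 5.40, 7.28 and 4.94. The 3 Cd73PC libraries and E15 stood above E18 and well above the 3 Cd73NC libraries. Cd73PC was 2.49-fold above Cd73NC at P2, 2.36-fold at P5 and 3.32-fold at P8, with bounds apart each time. In the order of levels, the bounds of P8 Cd73PC and P5 Cd73PC overlapped, as did those of P5 Cd73PC and E15, of E15 and P2 Cd73PC, and of P2 Cd73NC and P8 Cd73NC. The row merges 2 start sites, so Thrb2 and the other isoform were not separated.

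Together, the balance of the RNA of the 2 thyroid hormone receptor genes differed between the fractions. The shares rest on the FPKM of Thra, which lay above its own upper bound in all 8 libraries. Isoforms of either gene were not separated. Thrb made up 17.9%, 25.2% and 27.8% of the summed FPKM of Thra and Thrb in Cd73PC at P2, P5 and P8. In Cd73NC its share was 5.91%, 9.01% and 2.95%, and in whole retina it was 17.8% at E15 and 10.2% at E18. The sum itself lay between 67.2 and 112 in 7 libraries and at 167 in P8 Cd73NC.

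The RXRs are the common partners of the other receptors. Rxra encodes the most widely used subtype (chromosome 2 from 27532721 to 27618839, plus strand). Its FPKM was 12.6 at E15 and 15.6 at E18. In Cd73PC it was 22.0 (P2), 26.4 (P5) and 28.7 (P8), whereas in Cd73NC it was 13.6, 14.0 and 5.69. Whole retina and the earlier Cd73NC libraries had similar levels with overlapping bounds between neighbours in order, the Cd73PC libraries were above them, and P8 Cd73NC was below. The ratio of Cd73PC to Cd73NC was 1.58-fold (P2), 1.82-fold (P5) and 4.44-fold (P8). The P8 ratio came with a level in Cd73NC that was 2.18-fold lower than at P2, while Cd73PC was 1.29-fold higher.

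Rxrb, the subtype with the most even expression, had an FPKM of 32.8 at E15 and 31.0 at E18 (chromosome 17 from 34168757 to 34175348, plus strand). It was 30.2, 30.8 and 27.9 in Cd73NC and 33.6, 39.1 and 31.2 in Cd73PC at P2, P5 and P8. Only the P5 Cd73PC value had bounds above those of all other libraries. Its start lies 121 bases from the row of Slc39a7, a zinc transporter gene.

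Rxrg encodes RXR gamma, in the retina known as a repressor of S opsin in cones (chromosome 1 from 169528493 to 169569754, plus strand). Its FPKM was 13.1 at E15 and 14.7 at E18. In Cd73PC it was 26.9 (P2), 22.6 (P5) and 8.48 (P8), and in Cd73NC it was 3.48, 6.31 and 2.06. Each Cd73PC library was above every Cd73NC library, and the bounds of neighbours in the order overlapped only between E15 and E18. Cd73PC was 6.23-fold above Cd73NC at P2, 3.22-fold at P5 and 3.10-fold at P8. Within Cd73PC the gene was 2.94-fold lower at P8 than at P2, the one receptor past 1.5-fold lower in this fraction, while Thra (1.41-fold) and Rarb (1.45-fold) were lower within that limit.

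With these courses the makeup of the RXR pool differed between libraries. In Cd73PC, Rxrg was 32.6% (P2), 25.6% (P5) and 12.4% (P8) of the summed RXR FPKM. In the same libraries Rxra was 26.7%, 30.0% and 42.0%. In P8 Cd73NC, Rxrb made up 78.3% of the pool, the highest share of any library, and the sum of the pool was lowest there at 35.6, against 88.1 in P5 Cd73PC.

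**Figure D3:**
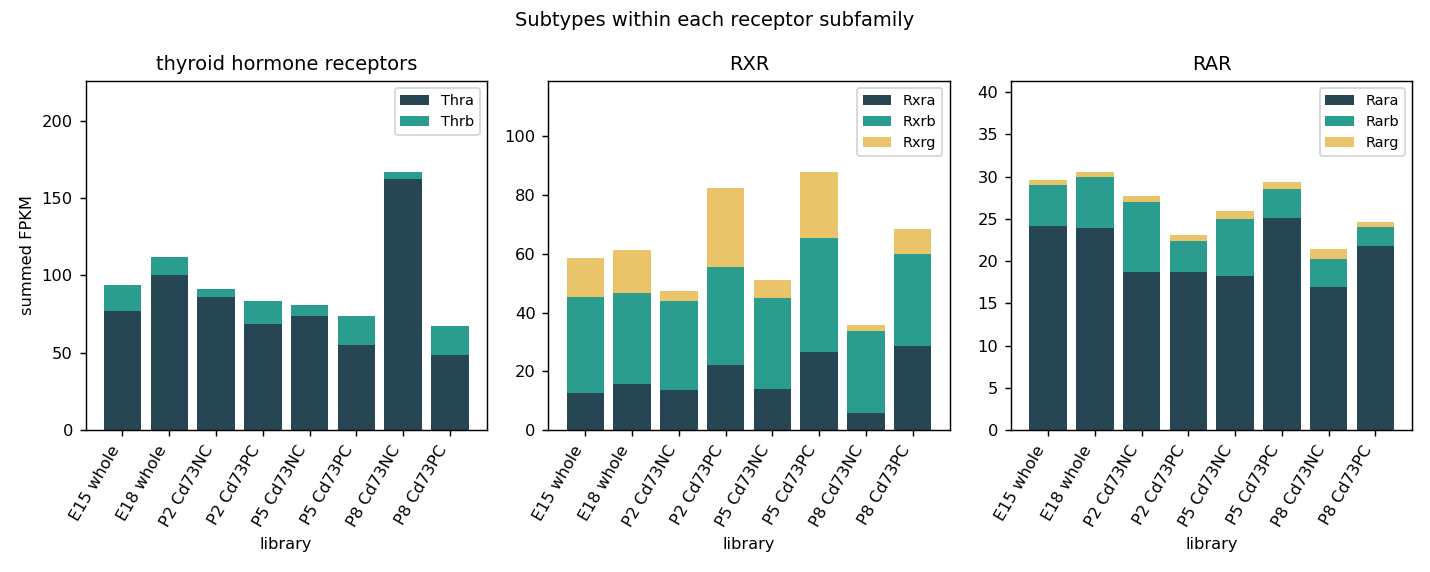
Summed FPKM (y axis, from 0) of the thyroid hormone receptors, the RXRs and the RARs in the 8 libraries (x axis), with each subtype as a coloured part of the bar and 1 library per bar. The bar of P8 Cd73NC is the tallest for the thyroid hormone receptors (167) and the shortest for the RXRs (35.6) and the RARs (21.4).

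The RARs bind retinoic acid itself. Rara, the widely expressed subtype (chromosome 11 from 98799010 to 98836256, plus strand), had an FPKM of 24.2 at E15 and 24.0 at E18. It was 18.7, 18.2 and 16.9 in Cd73NC and 18.7, 25.1 and 21.8 in Cd73PC at P2, P5 and P8. The fractions were equal at P2, and Cd73PC was 1.36-fold above Cd73NC at P5 and 1.27-fold at P8, with bounds apart but within the 1.5-fold limit.

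Rarb (chromosome 14 from 17263354 to 17407724, minus strand) is the gene whose promoter held the DR5 shown above. At P2 and P5 it was lower in Cd73PC, opposite to the receptors raised in that fraction. Its FPKM was 4.75 at E15 and 6.02 at E18. In Cd73NC it was 8.33 (P2), 6.74 (P5) and 3.33 (P8), and in Cd73PC it was 3.71, 3.34 and 2.25. The highest level was in P2 Cd73NC, and both fractions were lower at P8 than at P2. Cd73NC was 1.98-fold above Cd73PC at P2 and 1.78-fold at P5, with bounds apart. At P8 it was 1.33-fold above, with bounds that overlapped, and after quantile normalization the log2 ratio of Cd73PC to Cd73NC turned from -0.41 to 0.09. In the order of levels the bounds of every pair of neighbours overlapped. The row of Rarb ends 52 bases from that of Top2b, a topoisomerase gene, whose FPKM was between 49.9 and 97.8, and reads that pass from one into the other could not be told apart here.

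Rarg (chromosome 15 from 102065371 to 102087914, minus strand) was close to the limit of expression. Its FPKM was 0.637 at E15, 0.616 at E18, 0.596 in P2 Cd73NC, 0.606 in P2 Cd73PC, 0.974 in P5 Cd73NC, 0.918 in P5 Cd73PC, 1.21 in P8 Cd73NC and 0.654 in P8 Cd73PC. The P8 fractions had bounds that did not overlap and differed 1.34-fold on FPKM + 1, or 1.86-fold on FPKM alone, and after quantile normalization the log2 ratio turned from -0.42 to 0.06. Of the summed RAR FPKM, Rara made up between 67.7% and 88.2% in the 8 libraries, Rarb between 9.14% and 30.1%, and Rarg between 2.01% and 5.66%. The share of Rarb was highest in P2 Cd73NC and lowest in P8 Cd73PC.

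Rora encodes a receptor that activates clock genes and, in cones, opsin genes (chromosome 9 from 68501609 to 69226835, plus strand). Its FPKM was 3.52 at E15 and 4.91 at E18. In Cd73PC it was 8.98 (P2), 12.96 (P5) and 20.9 (P8), and in Cd73NC it was 3.88, 7.87 and 10.3. It was higher at each later stage in both fractions, and Cd73PC was above Cd73NC at each stage. The ratio was 2.05-fold (P2), 1.57-fold (P5) and 1.95-fold (P8), and from P2 to P8 the level was 2.20-fold higher in Cd73PC and 2.31-fold higher in Cd73NC. The bounds of P8 Cd73NC overlapped with those of P5 Cd73PC and P2 Cd73PC, so the later Cd73NC cells were at the level of the earlier Cd73PC cells. A further gene, 9530091C08Rik, lies within the Rora locus, and its FPKM was at most 0.0144.

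The course over development was then compared within each kind of sample. From E15 to E18 none of the 9 receptors was higher (0 of 9, against 7.37% of all genes) and none was lower (0 of 9, against 3.31%). The largest differences were those of Thrb, with a log2 ratio of -0.51, and of Rora, with 0.39. After quantile normalization the ratio of Thrb was -0.61, past the limit, and 5.82% of all genes were higher and 4.82% lower. From P2 to P8 in Cd73PC, Rora was higher (1 of 9, against 10.3%) and Rxrg lower (1 of 9, against 23.7%), and the shares of all genes were 15.4% and 15.9% after quantile normalization. From P2 to P8 in Cd73NC, Thra and Rora were higher (2 of 9, against 20.9%) and Rxra and Rarb lower (2 of 9, against 23.0%). The shares in Cd73NC were close to those of all genes.

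Because Thrb and Rxrg are known from cones, the 4 receptors raised in Cd73PC were set beside the markers of rods and cones. Of 8 cone markers, 3 were higher and 0 lower in Cd73PC at P2, 1 was higher and 1 lower at P5, and 4 were higher and 0 lower at P8. Only Gngt2, a transducin subunit of cones, was higher at all 3 stages. The shares of all genes higher and lower were 13.7% and 23.3% (P2), 11.3% and 25.1% (P5) and 12.1% and 29.6% (P8). The cone list summed to an FPKM of 36.4 at E15, 190 at E18, between 141 and 500 in Cd73NC and between 969 and 1581 in Cd73PC, and in P2 Cd73PC 1260 of the 1406 came from Gngt2. Gnat2, the cone transducin alpha subunit, was at 14.8, 35.3 and 31.6 in Cd73NC and 21.9, 22.3 and 22.8 in Cd73PC at P2, P5 and P8, without a constant direction. Thrb in Cd73NC was 36.1%, 39.3% and 26.4% of its level in Cd73PC, and Rxrg was 12.9%, 27.97% and 24.2%. The single rod markers were between 0.249% and 21.1%, below each of the 4 receptors at the same stage, but the cone markers were spread, with Gngt2 at 6.37%, 23.8% and 18.7%, Cngb3 at 19.0%, 72.4% and 51.5% and Gnat2 between 67.7% and 158%. The part of cones or of rods in the levels of Thrb and Rxrg was not tested.

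**Figure D4:**
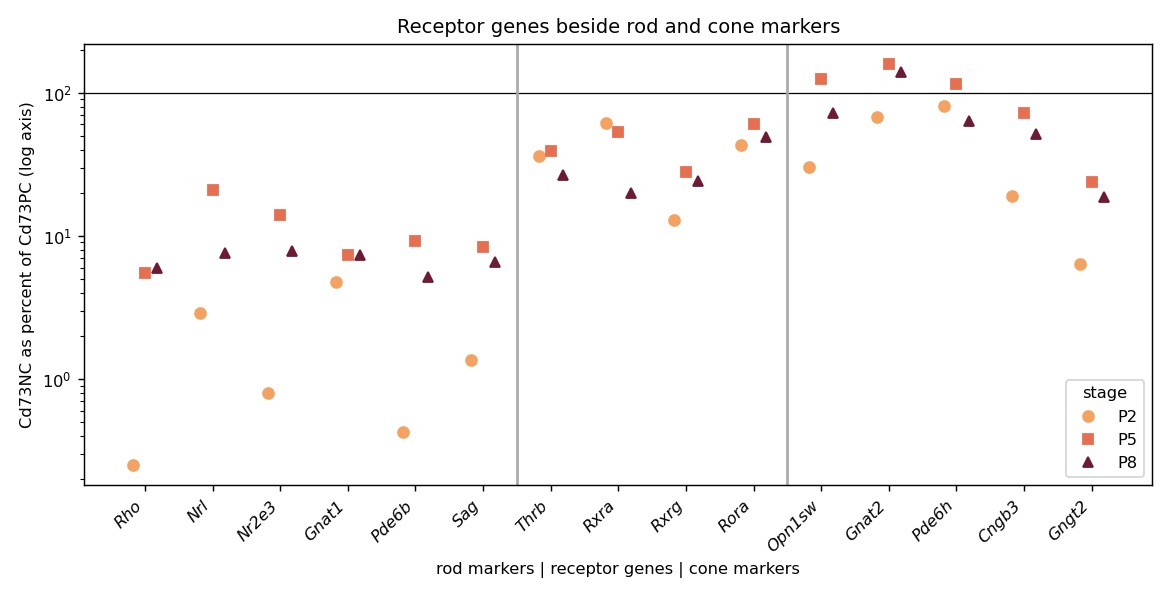
FPKM in Cd73NC as a percentage of that in Cd73PC (y axis, log scale) at P2 (circles), P5 (squares) and P8 (triangles) for 6 rod markers, the 4 receptors raised in Cd73PC and 5 of the 8 cone markers, leaving out those under FPKM 1 in both P2 fractions. The receptors lie between 12.9% and 61.7%, above every rod marker of the same stage, while the cone markers run from 6.37% (Gngt2) to 158% (Gnat2) and overlap with them.

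Markers of other cells also differed between the fractions. The 4 progenitor markers were lower in Cd73PC at all 3 stages, with sums from 49.6 to 1415 in Cd73NC and from 10.7 to 351 in Cd73PC, and the Muller glia markers were lower in 3 of 4 at P2 and in 4 of 4 at P5 and P8. The pigment epithelium markers Tyrp1, Ttr and Pmel were higher in Cd73PC at P2 and P8, and the summed list was at 58.5 in P2 Cd73PC against 1.25 in P2 Cd73NC, although Rpe65, its defining enzyme, was at 0 in both. Of the 5 amacrine markers, 4 were lower and 1 higher in Cd73PC at P2, and 3 were lower and 1 higher at P5. At P8, 1 was lower and 1 higher. Gad2 was lower and Slc6a9, a glycine transporter, higher at each stage. The ganglion cell list was at 815 and 501 in whole retina and at most 12.8 in the sorted cells. The 3 horizontal cell markers were within 1.5-fold on FPKM + 1. Their FPKM in the sorted cells was at most 1.61, so the added 1 hides part of any difference. Of the 4 endothelial markers 0 were higher and 2 lower in Cd73PC at P2, and 1 (Cdh5) was higher and 1 lower at P5. At P8 0 were higher and 1 lower. Kdr was lower each time, at 139, 143 and 67.5 in Cd73NC. Cdh5 and Pecam1 were not lower at any stage, and in Cd73NC they were at most at 1.13 and 0.813. The shares of all genes higher and lower were 13.7% and 23.3% (P2), 11.3% and 25.1% (P5) and 12.1% and 29.6% (P8). The part of these cells in the receptor levels was not tested.

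Genes that bring thyroid hormone into the cell or change it were next examined as a list of 9, of which 5 reached FPKM 1. At P2 1 was higher and 3 were lower in Cd73PC, against 13.7% and 23.3% of all genes. At P5 1 was higher and 2 were lower, against 11.3% and 25.1%, and at P8 also 1 and 2, against 12.1% and 29.6%. Slc7a8, an amino acid transporter that also carries thyroid hormone, was higher in Cd73PC at all 3 stages, with 0.710, 4.09 and 10.4 in Cd73NC and 6.08, 17.4 and 31.2 in Cd73PC. Crym, a cytosolic protein that binds the hormone T3, was at 338, 573 and 413 in Cd73NC and at 94.0, 154 and 80.7 in Cd73PC. Among the deiodinases, Dio3, which inactivates the hormone, was at 26.3 at E15 and 15.98 at E18 and at 0.157 in P8 Cd73PC. Dio2, which activates it, stayed under 1 with a highest FPKM of 0.837 in P8 Cd73NC, and Dio1 was listed at 0 in 7 libraries. Dio2 and Dio3 were chosen for description after their values were seen.

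The retinoic acid list held 14 genes, 12 of them with an FPKM of at least 1. At P2 3 were higher and 7 lower in Cd73PC, against 13.7% and 23.3% of all genes. At P5 1 was higher and 6 were lower, against 11.3% and 25.1%. At P8 1 was higher and 4 were lower, against 12.1% and 29.6%. The median log2 ratio of the 12 was -1.08 (P2), -0.61 (P5) and -0.48 (P8), below the median of all genes. Cyp26a1, which degrades retinoic acid, was lower at each later stage, at 26.6, 5.73 and 2.56 in Cd73NC and 2.99, 0.751 and 0.198 in Cd73PC. Aldh1a1, which makes it, was at 45.6, 31.0 and 26.6 in Cd73NC and 13.2, 9.30 and 4.24 in Cd73PC. Dhrs3, a reductase that turns retinal to retinol, was the gene of the list higher in Cd73PC at all 3 stages, with 4.08, 28.2 and 65.2 against 2.11, 4.57 and 8.26 in Cd73NC.

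Of 12 coregulators of nuclear receptors, 3 were higher and 1 lower in Cd73PC at P2, against 13.7% and 23.3% of all genes. At P5 1 was higher and 2 were lower, against 11.3% and 25.1%, and at P8 2 and 2, against 12.1% and 29.6%. The coactivator Ncoa2 was the gene of this list higher at all stages, with 39.4, 47.5 and 66.3 in Cd73PC against 12.95, 20.5 and 18.9 in Cd73NC. Hr, a corepressor that is itself induced by thyroid hormone in brain, was lower in Cd73PC at all stages. Its FPKM was 0.247 at E15, 1.34, 11.4 and 43.4 in Cd73NC and 0.528, 2.63 and 9.19 in Cd73PC. The corepressor Ncor1 was even, between 26.7 and 34.1 in the 8 libraries.

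**Figure D5:**
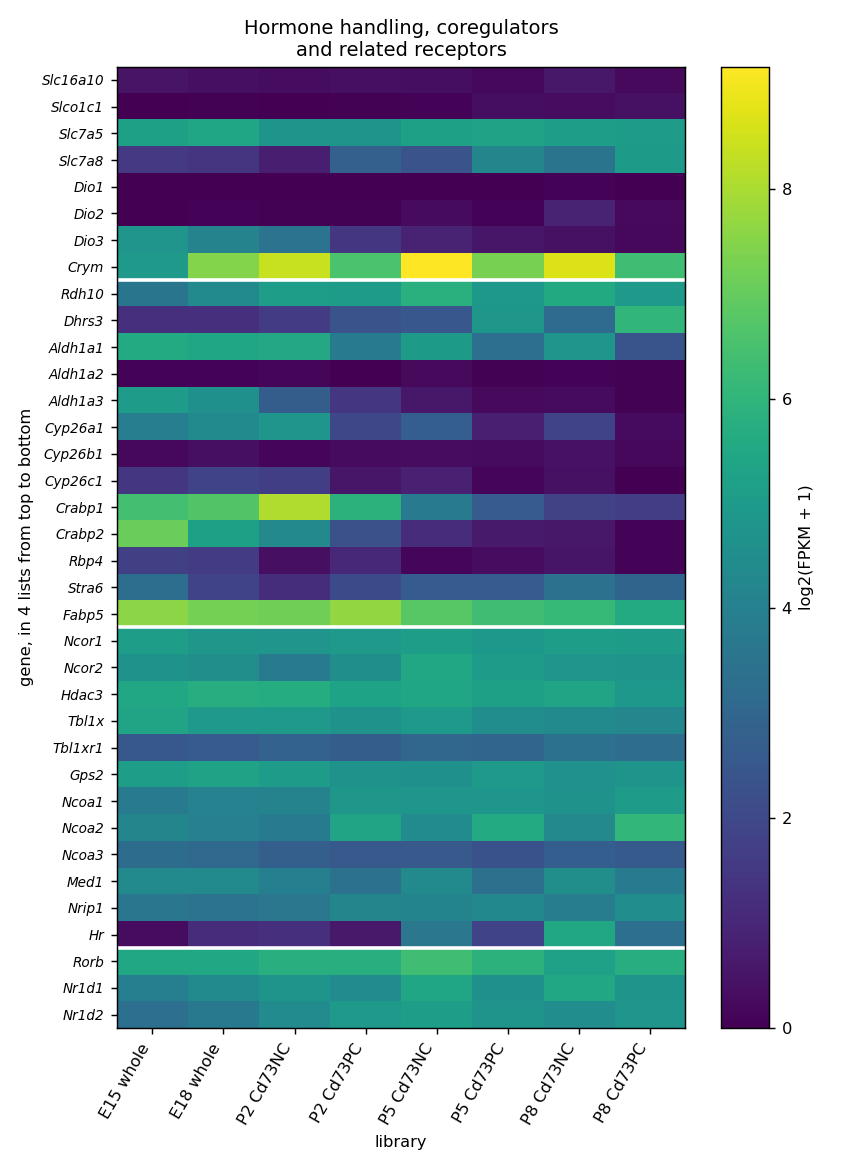
Level, as log2(FPKM + 1) by colour, of genes of hormone handling, retinoid metabolism, coregulators and ROR or Rev-erb receptors (y axis, 4 lists from top to bottom, divided by white lines) in the 8 libraries (x axis). Crym has the brightest cells, with an FPKM of 573 in P5 Cd73NC, while Dio1, Aldh1a2 and Cyp26b1 stay dark in every library.

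Among 9 other partners of RXR, 6 had an FPKM of at least 1. At P2 3 were higher and 1 was lower in Cd73PC, against 13.7% and 23.3% of all genes. At P5 3 were higher and 0 lower, against 11.3% and 25.1%, and at P8 2 were higher and 0 lower, against 12.1% and 29.6%. The fatty acid receptor genes Ppara and Ppard were higher at all 3 stages, Ppara with 1.77, 3.60 and 6.31 in Cd73PC against 0.0821, 0.748 and 0.407 in Cd73NC, and Ppard with 16.5, 30.1 and 34.3 against 7.87, 15.2 and 15.2. Rorb, the ROR needed for rod differentiation, was between 37.1 and 81.8 and within 1.5-fold at each stage.

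Of 10 orphan and photoreceptor nuclear receptors, 2 were higher and 3 lower at P2, 3 higher and 2 lower at P5, and 2 higher and 3 lower at P8. Nr2e3, the receptor that represses cone genes in rods and also one of the rod markers above, had the largest mean log2 ratio among them (4.42), and Nr2e1 and Nr2f1, receptors of progenitors and patterning, had mean log2 ratios of -1.82 and -1.71. Of 14 genes known to respond to thyroid hormone, retinoic acid or ROR, Rarb among them, 4 were higher and 5 lower at P2, 3 higher and 6 lower at P5, and 3 higher and 5 lower at P8. Beside both lists, the shares of all genes higher and lower were 13.7% and 23.3% (P2), 11.3% and 25.1% (P5) and 12.1% and 29.6% (P8). The transglutaminase gene Tgm2, a retinoic acid response gene, was lower in Cd73PC at all 3 stages (mean log2 ratio -1.27).

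The pattern of each receptor over the 8 libraries was finally compared with that of 10859 genes with an FPKM of at least 5 in any library, by the Pearson correlation of log2(FPKM + 1). The libraries differ in cell makeup, which all genes share, so the values are a description. Of the 27 genes named by this measure, 2 were kept with the Spearman correlation. Thra was most like B230217C12Rik (r = 0.98), Terf2 (0.98) and Pkd2 (0.97), and Thrb was most like Zdbf2 (0.98), Adcy6 (0.96) and Plagl2 (0.96). Rxra was most like Tctn2 (0.98), which encodes a protein of the ciliary transition zone, and Fam86 (0.98). Rxrb was most like AA960436 (0.96), Pef1 (0.96) and Flot2 (0.94), and Rxrg most like Klhl1 (0.98), 4933409K07Rik (0.93) and Pcgf1 (0.93).

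For Rara the nearest genes were Iqce (0.97), Tarbp2 (0.95) and Stat2 (0.93), for Rarb Prr5l (0.98), Gm13889 (0.98) and 1700019D03Rik (0.98), and for Rarg Amdhd2 (0.99), Rgs5 (0.96) and Npdc1 (0.95). Rora was most like Med24 (0.99), a mediator subunit gene, Lman2l (0.99) and Myrip (0.99). Klhl1 shared with Rxrg the high level in P2 Cd73PC, with an FPKM of 19.0 against 1.64 in P2 Cd73NC. Among the receptors themselves Thrb and Rxrg had the highest correlation (r = 0.84), and the lowest was that of Thra and Rxra (r = -0.93), each over 8 libraries.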

How the data were processed

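RNA of 8 samples was sequenced by the authors as single reads of 36 bases without a record of strand. The submitters' processing notes name CASAVA 1.8.2, bcl2fastq 1.8.4, TopHat2 2.0.8b, Cufflinks 2.1.1 and the build mm9. Each deposited table has 23021 rows with an FPKM, a status and a pair of bounds made by the authors, and counts were not used here, so the absolute depth is unknown. Rows of failed estimates (4 to 10 per library) were taken as missing, 797 rows of small RNAs were left out by symbol, and rows of 1 symbol were summed. Relative depth was read from the ratios of low FPKM values, which move in steps of 1 read.

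Ratios were taken on FPKM + 1, which understates the change of genes with low FPKM, and a gene was called past 1.5-fold. The background was the 13411 genes with an FPKM of at least 1 in any library. With 1 library per condition there was no test within a stage. The fractions were compared over the 3 stages with limma 3.58.1 on log2(FPKM + 1), stage as block and Benjamini-Hochberg adjustment, since Cd73PC and Cd73NC were sorted from the same retinas. Alternatives were a pseudocount of 0.1 or 0, no filter, upper quartile scaling, quantile normalization, a 2-fold threshold, bounds that do not overlap, and small RNAs kept. The genes named were the 9 members, up to 4 genes per list past 1.5-fold in the same direction at the 3 stages, a list gene next to a member, and the 3 genes most like each member. A few genes that this rule names are not reported here. The members and lists were chosen with earlier results of these data known. Scripts (Python 3.11.15, numpy 2.4.6, pandas 2.3.3 and matplotlib 3.10.9) were tested on simulated data. Coordinates of genes are of NCBI37/mm9 and those of promoters of GRCm38.p6.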

Additional observations from a re-analysis of the deposited data

How the results depend on the processing

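Of 54 log2 ratios of the 9 receptors, 50 kept their sign with quantile normalization and 52 with upper quartile scaling. Another pseudocount cannot change the sign of a ratio. The largest move under any of these settings was 0.55 on the log2 scale. The 6 that changed sign were all within 1.5-fold. Quantile normalization turned Rarb at P8 to 0.09, Rarg at P5 to 0.33 and at P8 to 0.06, and Rxrb from P2 to P8 in Cd73PC to 0.02, and upper quartile scaling turned Rarg at P5 to 0.02 and Rxrb in Cd73PC to 0.01. The 48 subfamily sums stayed within 1.5-fold under the scalings. Of 122 counts of receptors, 106 stayed within 1.5-fold of the reported count. Those without a filter and with small RNAs kept could not move, since both settings leave the 9 genes unchanged. With a 2-fold threshold, which calls fewer genes by construction, the genes higher in Cd73PC were 2 at P5 and 2 at all 3 stages. Those lower were 0 at P2 and 0 at P5, and those higher from P2 to P8 in Cd73NC were 1. Shares of all genes are given for 1.5-fold only. With a pseudocount of 0.1 or of 0, the genes lower were 2 at P8 and 2 from P2 to P8 in Cd73PC. Quantile normalization gave 0 lower at P5 and 1 lower from E15 to E18, and the cause was not tested. It shifted the median log2 ratio of all genes by 0.17 at P5, 0.24 at P8 and 0.17 from P2 to P8 in Cd73PC. Of the 27 genes most like a receptor, 2 were kept with the Spearman correlation. Without P5, an alternative chosen after seeing the data, 4 receptors were higher and 0 lower at both other stages. Leaving out a stage can only add genes to such a count, so the 4 were kept by construction.

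With stage as the replicate block, a fit chosen after seeing the data, 4 receptors were higher and 1, Rarb, was lower over the 3 pairs. With 1 stage left out of this fit the higher receptors were 0 to 2 and the lower 0 to 1, with fewer pairs by construction. Of all 13411 genes, 2933 passed without P2, 0 without P5 and 2497 without P8. No replicate was left out, since each condition had 1 library. The bounds cover the estimate within a library, and no value here shows how much the receptors vary between animals.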

Other observations

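Other genes of the lists counted above, which the rule did not name, also differed in level between stages and were chosen after their values were seen. Esrrb, an orphan receptor, had an FPKM of 0.144 in P2 Cd73PC, 4.96 at P5 and 26.3 at P8, and 0.0915, 0.231 and 1.64 in Cd73NC. Klf9, a transcription factor gene that responds to thyroid hormone, was at 7.99, 25.9 and 50.8 in Cd73PC and at 10.2, 11.3 and 15.3 in Cd73NC, so it was past 1.5-fold higher at P5 and P8 but not at P2. Esrrg was higher in Cd73PC at P2 (14.7 against 4.77) and lower at P8 (17.1 against 26.7).

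The M opsin gene Opn1mw was at most 0.135 up to P5 and reached 4.10 in Cd73NC and 2.72 in Cd73PC at P8. The S opsin gene Opn1sw was already at 39.8 at E18. The retinoic acid binding protein gene Crabp2 was at 132 at E15 and 0.0748 in P8 Cd73PC, and Crabp1 was at 270 in P2 Cd73NC and 2.53 in P8 Cd73NC.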
